A study of Homo sapiens with 3 samples.

Results

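The E2F transcription factors and the retinoblastoma (RB) proteins that bind them were followed as 10 named genes in 3 single-cell RNA-seq libraries. These were the activators E2F1, E2F2 and E2F3, the repressor E2F4, the atypical repressors E2F7 and E2F8, the dimer partner TFDP1, and the pocket proteins RB1, RBL1 (p107) and RBL2 (p130). All 10 were found by symbol in each file, out of 33423 genes in the files together. The cells came from the prostate cancer lines LNCaP and VCaP. LNCaP–ENZ168 held LNCaP cells kept in 10 µM enzalutamide (ENZ), an inhibitor of the androgen receptor, for 168 h. VCaP–ENZ48 held VCaP cells kept in 10 µM ENZ for 48 h, and VCaP parental held VCaP cells kept for 48 h in 0.1% DMSO, the vehicle. Every group consisted of a single library, which leaves no spread between replicates to test against, and an untreated LNCaP library prepared in the same way was not analysed here.

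E2F proteins, most of them paired with a DP protein such as TFDP1, bind the promoters of genes needed for DNA replication and mitosis. In resting and early G1 cells, pocket proteins hold E2Fs in a repressive state: RB1 mainly binds the activators, while RBL1 and RBL2 bind E2F4 and join the MuvB proteins in the DREAM complex. Cyclin D with CDK4 or CDK6 and cyclin E with CDK2 phosphorylate the pocket proteins, E2Fs are released, and the activators switch on S phase genes. Several of these genes are themselves E2F targets, among them E2F1, E2F2, E2F7, E2F8 and RBL1, and E2F7 and E2F8 then shut the programme down. In prostate cancer RB1 is one of the tumour suppressors whose loss accompanies resistance to therapy aimed at the androgen receptor.

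The promoters are shown because they are what an E2F reads. An E2F site is commonly written as 8 letters, and 4 spellings were searched on both strands: TTTCCCGC, TTTCGCGC, TTTGGCGC and TTTGCCGC. RefSeq promoter windows of 300 bases, from 250 before to 50 after a start, were at hand for 9 of the 10 genes (11 windows, 2 each for E2F3 and RBL2; E2F8 had none). A match was found in 5 of these windows (45.5%), against 3.31% of the 35116 windows of all genes and 38.1% of 42 windows of the E2F target genes described later. The windows with a match belonged to E2F1, E2F2, the upstream start of E2F3, RBL1 and TFDP1. The 150 bases just before the start are printed 5′ to 3′ along each gene for E2F1, E2F2, E2F3 and RBL1, which had matches, and for E2F7, which had none, with matches in capitals, where a match on the other strand appears as its reverse complement (RefSeq, GRCh38.p14).
E2F1, chr20:33686386-33686535, minus strand: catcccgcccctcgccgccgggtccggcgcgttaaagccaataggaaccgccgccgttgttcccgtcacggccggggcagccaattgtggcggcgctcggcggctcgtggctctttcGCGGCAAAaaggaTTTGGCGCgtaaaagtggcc
E2F2, chr1:23531234-23531383, minus strand: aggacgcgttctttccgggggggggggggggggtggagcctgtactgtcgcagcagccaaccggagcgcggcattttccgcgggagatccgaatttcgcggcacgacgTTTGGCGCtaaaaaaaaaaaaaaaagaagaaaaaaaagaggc
E2F3, chr6:20401729-20401878, plus strand: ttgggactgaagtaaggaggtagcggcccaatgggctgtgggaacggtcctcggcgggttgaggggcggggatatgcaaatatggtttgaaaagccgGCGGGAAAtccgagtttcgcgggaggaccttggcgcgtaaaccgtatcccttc
RBL1, chr20:37095998-37096147, minus strand: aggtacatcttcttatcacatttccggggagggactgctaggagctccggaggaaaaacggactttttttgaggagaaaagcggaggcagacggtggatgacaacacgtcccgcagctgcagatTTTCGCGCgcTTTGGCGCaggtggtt
E2F7, chr12:77065570-77065719, minus strand: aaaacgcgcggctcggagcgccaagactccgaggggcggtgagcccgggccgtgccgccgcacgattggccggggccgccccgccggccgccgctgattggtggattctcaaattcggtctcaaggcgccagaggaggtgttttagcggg

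E2F1 and RBL1 each carried 2 matches within 33 bases of the start. In E2F1 they began 33 and 20 bases before it and in RBL1 26 and 16 bases before it, while the single matches of E2F2, E2F3 and TFDP1 began 42, 53 and 120 bases before it. No window of E2F4, E2F7, RB1 or RBL2 held any of the 4 spellings. The RB1 window lies at an internal start (the 150 bases before it end at 48476449 on chromosome 13, in a gene that begins at 48303744), so the main RB1 promoter was not searched. A match is a string of letters and not a measured binding site.

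After filtering, the libraries held 944 (LNCaP–ENZ168), 997 (VCaP parental) and 947 cells (VCaP–ENZ48), with 6313283, 19515202 and 14301287 molecules (unique molecular identifiers, UMIs), and no kept barcode occurred in more than 1 library. Levels are UMIs summed over a library and divided by the library total (CPM), so 1 UMI stood for 0.0512 to 0.158 CPM, and intervals cover counting error only. The 4 luminal markers KRT8, KRT18, HOXB13 and FOXA1 lay between 98.4 and 460.5 CPM, and PTPRC, COL1A1 and PECAM1, markers of leukocytes, fibroblasts and endothelium, between 0 and 1.58 CPM. ERG, which a gene fusion switches on in VCaP, was at 105 and 57.1 CPM in VCaP parental and VCaP–ENZ48 and at 0 UMIs in LNCaP–ENZ168, which allows up to 0.475 CPM. Barcodes that end in an undetermined base (N) made up 86.2% and 86.6% of kept cells in the VCaP libraries and 21.7% in LNCaP–ENZ168.

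Of the activators, E2F3 was counted well enough for close comparison and E2F1 and E2F2 were scarce. E2F1 (GRCh38 chromosome 20, 33675477 to 33686385) gave 1.58 CPM in LNCaP–ENZ168 (10 UMIs), 1.84 in VCaP parental (36 UMIs) and 1.96 in VCaP–ENZ48 (28 UMIs). E2F2 (chromosome 1, 23506438 to 23531233) gave 2.53 CPM in LNCaP–ENZ168 (16 UMIs), 3.997 in VCaP parental (78 UMIs) and 0.489 in VCaP–ENZ48 (7 UMIs). The 3 E2F1 intervals overlapped, whereas the E2F2 interval of VCaP–ENZ48 lay below both others. E2F3 (chromosome 6, 20401879 to 20493714) gave 33.9 CPM in LNCaP–ENZ168 (214 UMIs), 91.1 in VCaP parental (1778 UMIs) and 53.0 in VCaP–ENZ48 (758 UMIs). VCaP parental was highest and LNCaP–ENZ168 lowest for E2F3, with intervals apart. E2F3 has 2 starts that give the isoforms E2F3a and E2F3b, and a count per gene does not separate them.

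The repressors divided by kind. E2F4 (chromosome 16, 67192155 to 67198918), the main E2F of resting cells, was at 12.4 CPM in LNCaP–ENZ168 (78 UMIs), 4.82 in VCaP parental (94 UMIs) and 4.34 in VCaP–ENZ48 (62 UMIs), so the VCaP libraries overlapped below LNCaP–ENZ168. E2F7 (chromosome 12, 77021248 to 77065569) was at 2.85 CPM in LNCaP–ENZ168 (18 UMIs), 11.9 in VCaP parental (232 UMIs) and 1.19 in VCaP–ENZ48 (17 UMIs). E2F8 (chromosome 11, 19224063 to 19241620) was at 3.48 CPM in LNCaP–ENZ168 (22 UMIs), 11.6 in VCaP parental (226 UMIs) and 0.839 in VCaP–ENZ48 (12 UMIs). Both atypical genes were thus highest in VCaP parental and lowest in VCaP–ENZ48, where E2F7 overlapped LNCaP–ENZ168 in its interval and E2F8 did not.

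Of the pocket proteins, RB1 and RBL2 were the better covered. RB1 (chromosome 13, 48303744 to 48599436) gave 34.8 CPM in LNCaP–ENZ168 (220 UMIs), 19.5 in VCaP parental (380 UMIs) and 14.8 in VCaP–ENZ48 (212 UMIs). RB1 transcript was thus counted in both lines, and LNCaP–ENZ168 was highest. RBL1 (chromosome 20, 36996349 to 37095997) gave 16.8 CPM in LNCaP–ENZ168 (106 UMIs), 8.92 in VCaP parental (174 UMIs) and 4.41 in VCaP–ENZ48 (63 UMIs), 3 levels with separate intervals. RBL2 (chromosome 16, 53433977 to 53491648), the pocket protein of resting cells, gave 152 CPM in LNCaP–ENZ168 (961 UMIs), 38.3 in VCaP parental (748 UMIs) and 39.8 in VCaP–ENZ48 (569 UMIs). The VCaP libraries could not be told apart for RBL2 and lay far under LNCaP–ENZ168. TFDP1 (chromosome 13, 113584721 to 113641473), the partner that lets E2Fs bind DNA firmly, gave 24.9 CPM in LNCaP–ENZ168 (157 UMIs), 13.5 in VCaP parental (263 UMIs) and 11.8 in VCaP–ENZ48 (169 UMIs), again with the VCaP libraries overlapping below LNCaP–ENZ168.

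**Figure D1:**
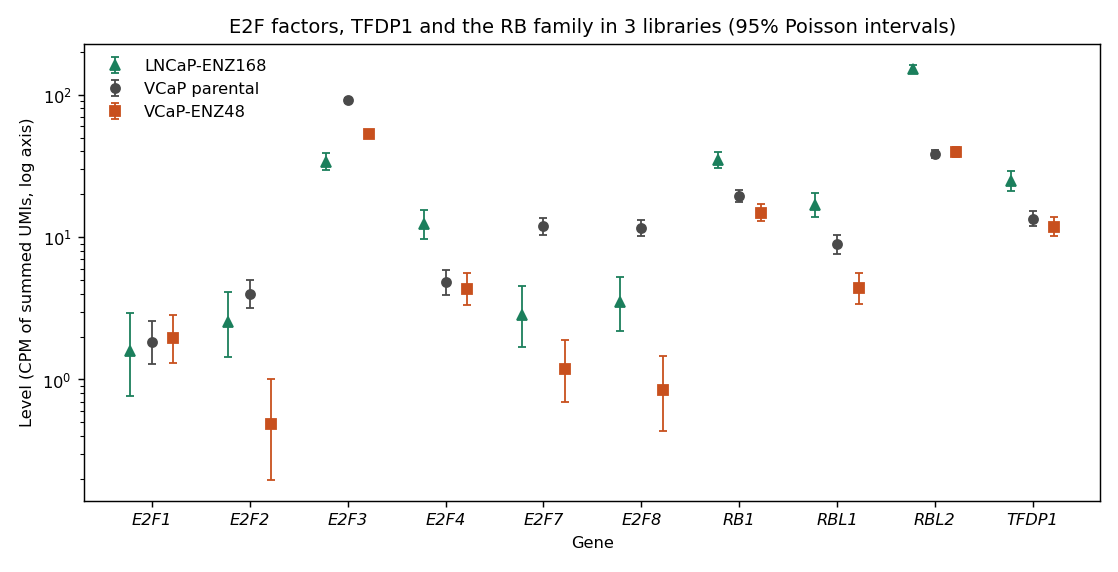
Level of each gene (x axis) in CPM of summed UMIs on a log axis, 1 point per library with its exact Poisson 95% interval. E2F2, E2F7 and E2F8 were lowest in VCaP–ENZ48, RBL2 reached 152 CPM in LNCaP–ENZ168 against 38.3 and 39.8 CPM in the VCaP libraries, and E2F1 stayed between 1.58 and 1.96 CPM.

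Overlapping genes could share reads with these counts, since the strand setting of the counting is not given in the sources used here. LPAR6 lies inside RB1 on the opposite strand and had 323, 254 and 121 UMIs in VCaP parental, VCaP–ENZ48 and LNCaP–ENZ168, and RCBTB2, at the end of RB1 and also opposite, had 55, 101 and 38 in that order. AKTIP overlaps RBL2 from the opposite strand with 369, 235 and 431 UMIs. The pseudogene RPS27AP3 inside RBL1 had 62, 112 and 4 UMIs. The values of RB1, RBL1 and RBL2 are uncertain to that extent.

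Detection in single cells was thin for most of these genes. E2F3 was seen in 72.2% of VCaP parental cells (95% interval 69.3 to 74.98), 41.7% of VCaP–ENZ48 cells (38.5 to 44.9) and 18.6% of LNCaP–ENZ168 cells (16.2 to 21.3), and RBL2 in 47.6%, 36.2% and 55.6% in the same order. E2F1 was found in 0.953 to 3.51% of cells. Depth differed between libraries (medians of 17817, 11224 and 5389 UMIs per cell in VCaP parental, VCaP–ENZ48 and LNCaP–ENZ168), so each cell was also thinned to 2000 UMIs, which left out 1 cell of LNCaP–ENZ168 and 30 of VCaP–ENZ48. E2F3 was then found in 15.8% of VCaP parental, 9.81% of VCaP–ENZ48 and 7.10% of LNCaP–ENZ168 cells, and RBL2 in 8.83%, 7.20% and 25.1%. The thinned shares of RBL2 put LNCaP–ENZ168 well above both VCaP libraries, the same order as the CPM. After thinning E2F7 and E2F8 were each found in 0 of 917 VCaP–ENZ48 cells, which allows up to 0.327% of cells with a UMI at that thinned depth, against 2.21% and 2.61% in VCaP parental. Unthinned, 1.16% and 0.9504% of VCaP–ENZ48 cells had a UMI of E2F7 and E2F8. No cell type here should lack these genes, so the share due to free RNA was not measured.

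The pair of VCaP libraries compares cells of 1 line with and without ENZ for the same 48 h. E2F8 and E2F7 were lower in VCaP–ENZ48, at 0.0725 and 0.100 of their VCaP parental level. RBL1 was at 0.494 of its level, E2F3 at 0.582 and RB1 at 0.761, while RBL2, TFDP1, E2F4 and E2F1 had intervals that included no difference. Ratios used to call genes are log2 ratios of CPM + 1 among genes that averaged 5 CPM or more over the pair, and the intervals given are exact 95% intervals for the log2 ratio of counts without the + 1, which lies further from 0 for scarce genes.

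By this rule 7 of the 10 genes were compared. E2F8 had a ratio of -2.77 (count ratio -3.79, -4.76 to -2.95) and E2F7 a ratio of -2.56 (count ratio -3.32, -4.13 to -2.61). These 2 passed 2-fold downwards and 0 upwards, where 5.95% of 10049 genes passed downwards and 10.5% upwards. Both reached the mean of 5 CPM only through VCaP parental, where they were high. A difference was thus needed for them to be compared at all, and their count is no support of its own. RBL1 (4.41 against 8.92 CPM) also reached that mean only through VCaP parental, while E2F2 (0.489 against 3.997 CPM) fell outside. RBL1 had a ratio of -0.88 (count ratio -1.02, -1.46 to -0.59), E2F3 of -0.77 (-0.78, -0.91 to -0.66) and RB1 of -0.37 (-0.39, -0.64 to -0.15). TFDP1 had a ratio of -0.18 (-0.19, -0.48 to 0.095) and RBL2 of 0.052 (0.054, -0.11 to 0.21). The summed counts cannot separate fewer cells of a phase from less RNA per cell. The median of the 7 was -0.77 and that of all 10049 genes 0.013, with quartiles of -0.37 and 0.45. The median of the 7 includes E2F7, E2F8 and RBL1, which were compared only through VCaP parental. E2F1, E2F2 and E2F4 were below 5 CPM and were not called. E2F2 had 7 UMIs against 78, a count ratio of -3.03 (-4.39 to -1.92), E2F1 a count ratio of 0.086 (-0.68 to 0.84) and E2F4 of -0.15 (-0.64 to 0.33). The 3 activators thus differed in their count ratios, with E2F2 furthest below 0, E2F3 between and E2F1 with an interval on both sides of 0.

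Scaling touched the middle of this order. TMM factors moved the median of all genes to -0.25, with 10.95% of genes lower by 2-fold and 7.13% higher. E2F3 was then at -1.06 and RBL1 at -1.15, so that 4 of the genes passed 2-fold, and RBL2 (-0.23) and E2F1 (-0.14) changed sign. With only barcodes that do not end in N (138 and 127 cells), E2F8 was at -3.27 and E2F7 at -2.43, E2F3 at -0.83, RBL1 at -0.69, RB1 at -0.41 and RBL2 at 0.18. In the same cells E2F1 was at -0.72, E2F4 at -0.62 and TFDP1 at -0.67, each lower than over all cells.

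**Figure D2:**
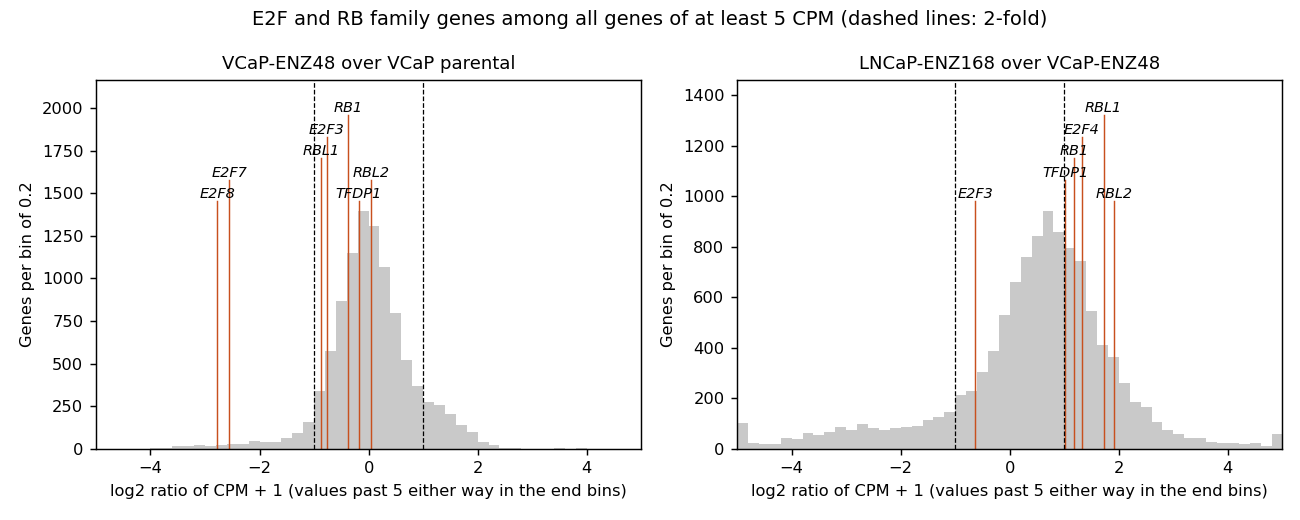
Number of genes (y axis) by log2 ratio of CPM + 1 (x axis) for VCaP–ENZ48 over VCaP parental (left) and LNCaP–ENZ168 over VCaP–ENZ48 (right), with the E2F and RB family genes of at least 5 CPM as labelled lines and 2-fold as dashed lines. E2F7 and E2F8 lie at -2.56 and -2.77 on the left, and the centre of the right panel lies at 0.64, with RBL2 furthest right of the labelled genes at 1.91.

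The genes around this family were read in the same pair from lists. Their counts are to be read against the 5.95% of all 10049 genes that were lower by 2-fold and the 10.5% higher. Among relatives outside the 10, E2F5, E2F6 and TFDP2 were compared and 0 of 3 passed 2-fold, with a median of 0.029 and with TFDP2, another dimer partner, at 0.093. Of the MuvB core and its partners, 6 of 9 were compared and 2 were lower. RBBP4, the histone binding subunit, was at -0.13 and DYRK1A, the kinase that promotes DREAM assembly, at -0.078. LIN9, a MuvB scaffold, was at -1.27 and FOXM1, the mitotic factor that takes over MuvB after DREAM, at -2.71. Of the G1 cyclins and kinases, 6 of 9 were compared and 3 were lower. CCND1 (cyclin D1) was at -0.78, CDK4 at -0.47 and CCNE2 (cyclin E2) at -2.51. The other genes past 2-fold were CDK2 (-1.83) and the phosphatase CDC25A (-1.16). Of the CDK inhibitors, 5 of 7 were compared and 1, CDKN2D (p19), was lower at -2.14, while CDKN1A (p21) was at -0.18, CDKN1B (p27) at -0.22 and CDKN2A (p16) at 0.10. FOXM1, CDK2, CDC25A and CDKN2D were named after their values were seen. The medians of the 3 lists were -0.56, -0.97 and -0.22, against 0.013 for all genes.

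E2F target genes, a list of 33 replication and S phase genes, had the lowest median of these lists. Of 30 compared, 28 were lower by 2-fold and 0 higher, with a median of -2.12. Of all genes compared, 5.95% were lower and 10.5% higher. CCNE2 and CDC25A, named above among the cyclins and kinases, are counted again in this list. MCM4, a subunit of the replicative helicase, was at -2.14 (count ratio interval -2.28 to -2.04), PCNA, the DNA polymerase clamp, at -2.04 (-2.14 to -1.97) and RRM1, a subunit of ribonucleotide reductase, at -1.54 (-1.68 to -1.44). Only E2F7 and E2F8 among the 7 family members had a ratio below the median of this target list. Both were compared only because they were high in VCaP parental, so this order is no support of its own. E2F2 (count ratio -3.03) was not compared. The proliferation markers moved with the target genes. MKI67 was at 207 CPM in VCaP parental and 23.4 CPM in VCaP–ENZ48, and TOP2A at 1051 and 91.9 CPM.

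Cell cycle phase was then called from expression, with E2F8 taken out of the S list, so that 42 S and 54 G2M genes remained and none of the 10 genes took part, although many E2F target genes did. In VCaP parental 36.8% of 997 cells were called S (95% interval 33.8 to 39.9) and 33.7% G2M (30.8 to 36.7). In VCaP–ENZ48 12.0% of 917 cells were called S (9.96 to 14.3) and 2.73% G2M (1.77 to 3.998, 25 cells). In LNCaP–ENZ168 12.4% of 943 cells were called S (10.37 to 14.7) and 10.9% G2M (9.003 to 13.1). The share of S cells depended on thinning and ranged from 7.11 to 19.2% in VCaP–ENZ48, so the levels by phase below rest on a call and not on a measurement of DNA content. How much of a difference between libraries came from the mix of phases was not tested, and levels are therefore also given within each phase.

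E2F7, E2F8, E2F2 and RBL1 were concentrated in cells called S or G2M in every library. In VCaP parental E2F7 rose from 1.14 CPM in G1 (6 UMIs) to 20.2 in S (145 UMIs) and 11.4 in G2M (81 UMIs), and E2F8 from 1.14 (6 UMIs) to 15.9 (114 UMIs) and 14.98 (106 UMIs). The S over G1 count ratio was 4.15 for E2F7 (3.00 to 5.62) and 3.81 for E2F8 (2.64 to 5.28). E2F2 was an S phase gene, with 0.569 CPM in G1 (3 UMIs), 8.23 in S (59 UMIs) and 2.26 in G2M (16 UMIs). RBL1 had 2.65 CPM in G1 (14 UMIs), 14.1 in S (101 UMIs) and 8.34 in G2M (59 UMIs). Cells called S or G2M held 97.4% of the E2F7 UMIs, 97.3% of E2F8, 96.2% of E2F2 and 92.0% of RBL1 in VCaP parental, where they held 73.0% of all UMIs. E2F1 had 30 of 36 UMIs (83.3%) in such cells, with 3.07 CPM in S and 1.13 in G2M against 1.14 in G1.

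In LNCaP–ENZ168 these genes were again lowest in G1. E2F7, E2F8 and RBL1 were not higher in S than in G2M there, with overlapping intervals. E2F7 was at 8.18 CPM in S and 11.2 in G2M, and E2F8 at 10.5 and 14.98. Cells called S or G2M held 26.2% of all UMIs there, but 88.9% of the E2F7 UMIs (16 of 18), 95.5% of E2F8 (21 of 22), 90.0% of E2F1 (9 of 10), 75% of E2F2 (12 of 16) and 54.7% of RBL1 (58 of 106). RBL1 was at 10.3 CPM in G1, 31.6 in S and 38.7 in G2M. In VCaP–ENZ48, where S and G2M cells held 15.6% of all UMIs, they held 13 of 17 E2F7 UMIs, 11 of 12 of E2F8, 7 of 7 of E2F2, 17 of 28 of E2F1 and 26 of 63 of RBL1. E2F7, E2F8 and RBL1 were not higher in S than in G2M in VCaP–ENZ48 either, on 4, 4 and 10 UMIs in G2M cells. E2F2 had 0 UMIs in the 782 VCaP–ENZ48 cells called G1, which allows up to 0.249 CPM.

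E2F3, TFDP1 and RB1 varied less over the phases. In VCaP parental E2F3 was at 75.6 CPM in G1, 120.0 in S and 73.4 in G2M, an S over G1 count ratio of 0.67 (0.49 to 0.84). TFDP1 had an S over G1 ratio of 0.82 (0.33 to 1.32) there and 0.89 (0.32 to 1.43) in VCaP–ENZ48. RB1 had 0.31 (-0.071 to 0.71) in VCaP parental, 0.79 (0.27 to 1.28) in VCaP–ENZ48 and 0.48 (-0.072 to 1.01) in LNCaP–ENZ168. RBL2 and E2F4, the pair of the resting cell, had no S over G1 interval above 0. E2F4 had -0.50 (-1.33 to 0.34) in VCaP parental, -0.29 (-1.67 to 0.85) in VCaP–ENZ48 and 0.18 (-0.91 to 1.13) in LNCaP–ENZ168, on 7 to 26 UMIs in S cells, too few to tell a rise from none. RBL2 had -0.13 (-0.41 to 0.14) in VCaP parental, -0.15 (-0.54 to 0.22) in VCaP–ENZ48 and -0.29 (-0.60 to -0.0053) in LNCaP–ENZ168, where G1 cells were at 159 CPM, S cells at 129.8 CPM and G2M cells at 136 CPM.

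**Figure D3:**
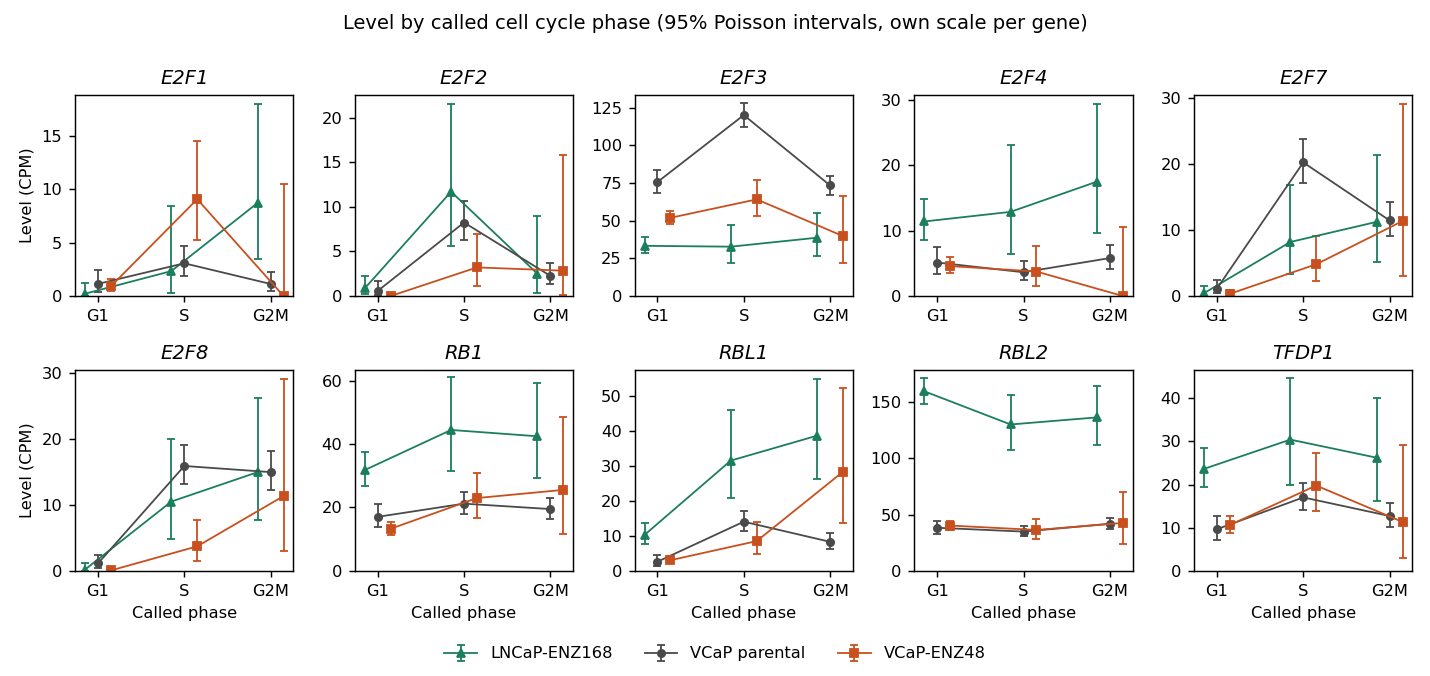
Level in CPM (y axis, own scale per gene) in cells called G1, S and G2M (x axis), 1 line per library with exact Poisson 95% intervals. E2F2, E2F7, E2F8 and RBL1 were lowest in G1 in each library, RBL2 lay between 34.9 and 42.6 CPM in every phase of both VCaP libraries, and the G2M points of VCaP–ENZ48 rest on 25 cells.

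Within phases the VCaP differences took 3 forms. E2F3 was lower in VCaP–ENZ48 in every phase, by a count ratio of -0.54 in G1 (-0.73 to -0.36), -0.90 in S (-1.19 to -0.63) and -0.88 in G2M (-1.77 to -0.12), against -0.78 over all cells; the G2M value rests on 14 UMIs. E2F7 and E2F8 were lower within S as well, by -2.07 (-3.23 to -1.11, 9 UMIs against 145) and -2.09 (-3.44 to -0.999, 7 against 114), and E2F2 by -1.36 (-2.86 to -0.15, 6 against 59). These 3 ratios within S were closer to 0 than those over all cells. In VCaP–ENZ48 the S phase UMIs of E2F7, E2F8 and E2F2 lay in 4, 5 and 4 cells. Some UMIs thus shared a cell, which the intervals do not allow for. These ratios were not repeated under other phase calls. In G1, E2F8 had 1 UMI against 6 (-3.77, -9.30 to -0.73) and E2F7 had 4 against 6 (-1.77, -4.04 to 0.30), and in G2M their intervals of -2.30 to 0.999 and -1.92 to 1.40 included no difference.

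RBL1, RB1, RBL2 and TFDP1 had intervals that included no difference within both G1 and S. RBL1, about 2-fold lower over all cells, was at 0.21 within G1 (-0.71 to 1.21, 37 UMIs against 14) and -0.72 within S (-1.58 to 0.047). Within G2M it was higher in VCaP–ENZ48, at 1.77 (0.63 to 2.75), on 10 UMIs in 6 cells. RB1 was at -0.36 in G1 (-0.74 to 0.030) and 0.12 in S (-0.41 to 0.61). RBL2 stayed at 0.071 in G1 (-0.17 to 0.32) and 0.058 in S (-0.35 to 0.45), and TFDP1 at 0.14 (-0.34 to 0.64) and 0.22 (-0.36 to 0.76). E2F1 alone was higher in S cells of VCaP–ENZ48, at 9.08 CPM against 3.07 CPM in VCaP parental, a count ratio of 1.56 (0.56 to 2.54). It rests on 17 UMIs in 12 cells against 22 UMIs in 22 cells. Some of the 17 UMIs shared a cell, which the interval does not allow for, and the ratio was not repeated under other phase calls. Within G1 E2F1 was at -0.31 (-1.88 to 1.40). Without barcodes that end in N, the G1 ratios of CPM + 1 were -0.48 for E2F3, -0.44 for RB1, 0.86 for RBL1 (7 UMIs against 1), 0.28 for RBL2 and -0.20 for TFDP1, on 98 and 41 cells.

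**Figure D4:**
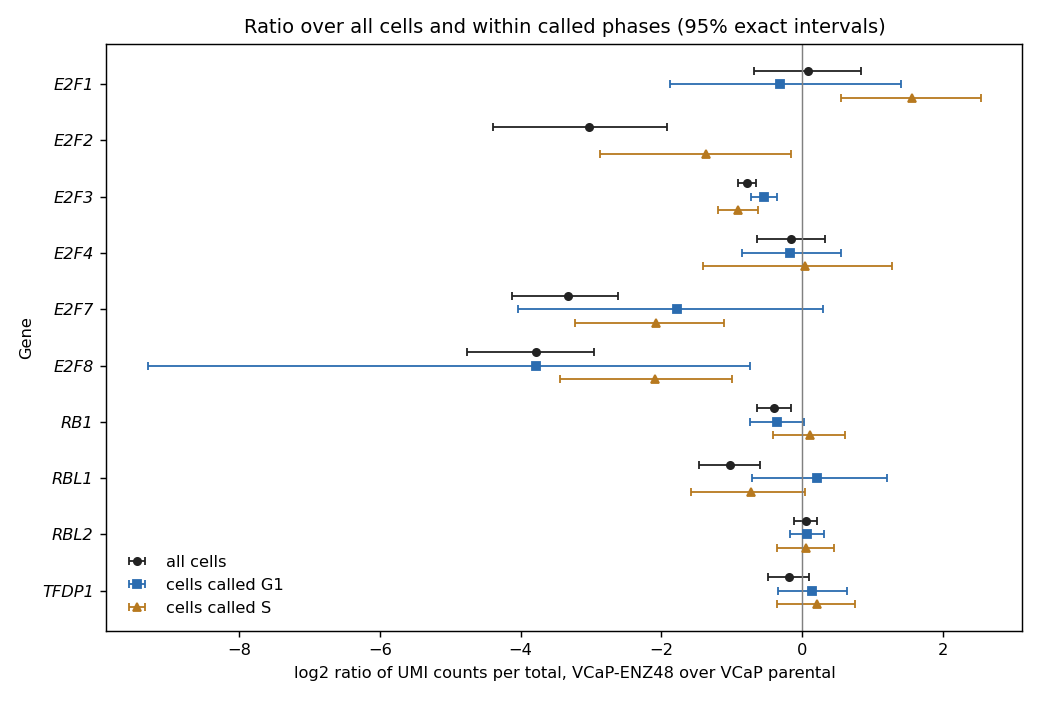
Count log2 ratio (x axis) of VCaP–ENZ48 over VCaP parental for each gene (y axis) over all cells, cells called G1 and cells called S, with exact 95% intervals and no point where a group had 0 UMIs (E2F2 in G1). E2F3 lies left of 0 in each, from -0.54 to -0.90, and RBL2 lies at 0.054 to 0.071. E2F1 lies right of 0 in S at 1.56, on 17 UMIs in 12 cells of VCaP–ENZ48.

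The comparison of LNCaP–ENZ168 with VCaP–ENZ48 sets treated cells of both lines side by side, and line, exposure time and preparation cannot be told apart in it. It uses the same VCaP–ENZ48 library as the first comparison. RBL2 was 3.83 times (95% interval 3.45 to 4.25), RBL1 3.81 times (2.76 to 5.29), E2F4 2.85 times (2.02 to 4.04), RB1 2.35 times (1.94 to 2.85) and TFDP1 2.10 times (1.68 to 2.63) their VCaP–ENZ48 level. E2F3 was lower, at 0.640 times (0.547 to 0.745). These 6 were compared, and 5 passed 2-fold upwards and 0 downwards, where 35.5% of 11196 genes passed upwards and 13.3% downwards. E2F4 (4.34 CPM) and RBL1 (4.41 CPM) were below 5 CPM in VCaP–ENZ48 and were compared only because LNCaP–ENZ168 was high. Their calls are therefore no support of their own, and the median of the 6 includes both.

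The shift of all genes was large in this pair. Log2 ratios of CPM + 1 had a median of 0.64 over all genes and 1.25 over the 6, with RBL2 at 1.91, RBL1 at 1.72, E2F4 at 1.32, RB1 at 1.18, TFDP1 at 1.01 and E2F3 at -0.63. TMM scaling moved the median of all genes to 0.11, with 19.3% lower and 18.4% higher. Under it RBL2 (1.38) and RBL1 (1.23) stayed above 2-fold, E2F4 (0.85), RB1 (0.67) and TFDP1 (0.51) did not, and E2F3 (-1.14) passed 2-fold downwards. With only barcodes that do not end in N (739 and 127 cells) RBL2 was at 1.89, RBL1 at 1.35, E2F4 at 1.52, RB1 at 1.25, TFDP1 at 1.502 and E2F3 at -0.64. E2F1, E2F2, E2F7 and E2F8 were below 5 CPM, with 10 against 28, 16 against 7, 18 against 17 and 22 against 12 UMIs. Their count ratios were -0.31 (-1.51 to 0.78), 2.37 (1.01 to 3.90), 1.26 (0.22 to 2.31) and 2.05 (0.98 to 3.20).

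The difference between these libraries was seen inside G1 cells too. Within cells called G1 the same count ratio was 1.98 for RBL2 (1.82 to 2.15), 1.75 for RBL1 (1.10 to 2.40), 1.32 for E2F4 (0.74 to 1.89), 1.26 for RB1 (0.92 to 1.59), 1.15 for TFDP1 (0.77 to 1.53) and -0.64 for E2F3 (-0.90 to -0.38). Each of these lay close to its value over all cells, which was largely fixed in advance because most UMIs came from G1 cells. Cells called S or G2M held 26.2% of UMIs in LNCaP–ENZ168 and 15.6% in VCaP–ENZ48. No median of all genes within G1 is given here. The lists around the family are to be read against the 35.5% of all genes that passed upwards and their median of 0.64. In them, 23 of 30 E2F target genes passed 2-fold upwards and 0 downwards (median 1.34), as did 4 of 5 CDK inhibitors (median 1.33), 3 of 6 G1 cyclins and kinases (0.71), 2 of 6 MuvB genes (0.71) and 1 of 3 relatives (0.087). The last 2 shares lay near that of all genes, the medians of the cyclin and MuvB lists near the median of all genes, and under TMM the target median was 0.85 against 0.11 for all genes. CDKN1B was at 1.56, CDKN2A at 1.21 and CDKN1A at 0.53. CCNE2 was at 1.03, CCND1 at 0.40 and CDK4 at 0.21. LIN9 was at 0.76, DYRK1A at 0.66 and RBBP4 at -0.12. TFDP2 was at 1.44, E2F5 at 0.087 and E2F6 at -0.30. Of the targets, RRM1 was at 1.81, PCNA at 1.27 and MCM4 at 0.55.

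Genes with the most similar pattern were looked up over 9 pools, the 3 phases of the 3 libraries, among 6095 genes of at least 20 CPM. E2F3 was most like TMA16 (Pearson r = 0.96), RALA (0.95) and UQCRQ (0.95). Genes like RB1 included RNF168 (0.99) and TPI1 (0.98), and RBL2 was most like TBL1XR1, MARK3 and DYNC1H1 (each 0.996 or 0.997). The other 7 genes averaged under 20 CPM over the pools and were not ranked. The pools of a library share its line, treatment and depth, so these values do not separate phase from library.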

How the data were processed

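LNCaP and VCaP cells were profiled by Drop-seq, which captures the 3′ ends of transcripts from single cells in droplets. The authors used Drop-seq tools 2.3.0 with STAR 2.7.3a and Picard 2.18.22, the GRCh38 genome and Gencode 33, with 1000 cells expected per sample, and deposited raw UMI counts per gene and barcode. Strand setting and cell filters of the counting are not given in the sources used here.

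Kept barcodes had 300 or more genes, 500 or more UMIs and no more than 25% of UMIs from mitochondrial genes (944 to 997 of 1000 per library). No doublet caller was run, and leaving out barcodes above 3 times the median depth was an alternative. UMIs were summed per library and scaled to CPM. Genes averaging 5 CPM or more over a pair of libraries were compared by log2 ratio of CPM + 1, and a gene past 2-fold was called. With 1 library per group no p-value was computed, a count of genes past 2-fold is a description of these libraries, and the intervals are exact Poisson, conditional binomial and Clopper-Pearson 95% intervals, which cover counting error only. A level of 0 UMIs is given with the limit of 3 counts. Phases were called with Seurat 5.3.0 (R 4.3.3) on all libraries together after thinning to 2000 UMIs. Other steps used Python 3.11.15, scipy 1.17.1 and edgeR 4.0.16 (TMM factors). The ratio step was tested on simulated data. Promoter windows were taken from RefSeq and gene positions from Gencode on GRCh38.

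The 10 genes and all lists were chosen with earlier results of these data known. The text names the 10 genes, the 3 genes of highest mean CPM in each list, and for each of the 10 with at least 20 CPM over the 9 pools the 3 genes of highest Pearson r outside the cell cycle lists. A gene that this rule names for RB1 is not reported here. Alternatives covered cell filters, weighting, scaling, pseudocount (0.1 and 5 CPM), expression minimum, fold and thinning, and G1 cells whose barcode does not end in N were added after seeing the data. TFDP3 and CCND2, listed among the relatives and cyclins, were not found in the files.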

Additional observations from a re-analysis of the deposited data

How the results depend on the processing

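No paired analysis was possible because the 3 groups hold 1 library apiece, which also leaves no replicate to drop. Of 220 ratios of the 10 genes under the alternatives, 194 moved by less than their counting interval, 25 moved further and 1 with an interval clear of 0 changed sign, E2F7 in LNCaP–ENZ168 over VCaP–ENZ48 at -0.070 with only barcodes that do not end in N. In the VCaP pair E2F1 and RBL2, whose intervals span 0, changed sign too. E2F1 was at -0.72 (no barcodes ending in N), -0.14 (TMM), -0.099 (median-of-ratios) and -0.040 (without the deepest barcodes), and RBL2 at -0.23 (TMM), -0.17 (median-of-ratios), -0.035 (cells weighted equally) and -0.0076 (without the deepest barcodes). The causes were not tested. In VCaP–ENZ48 over VCaP parental the number of the 10 genes lower by 2-fold was 4 under TMM, 4 at 1.5-fold and 0 at a minimum of 10 CPM, which leaves out E2F7 and E2F8. The median of all genes was -0.25 (TMM), -0.19 (median-of-ratios), 0.18 (without mitochondrial and ribosomal protein genes) and 0.17 (minimum 1 CPM). The E2F target median was -2.33 (without the deepest barcodes), -1.97 (no barcodes ending in N), -2.33 (cells weighted equally), -2.40 (TMM), -2.34 (median-of-ratios), -2.01 (without mitochondrial and ribosomal protein genes) and -1.79 (pseudocount 5). Genes lower by 2-fold made up 10.95% under TMM, 9.86% under median-of-ratios and 15.6% at 1.5-fold, and genes higher 5.93% at pseudocount 5 and 19.9% at 1.5-fold. In LNCaP–ENZ168 over VCaP–ENZ48 the number higher was 2 under TMM and median-of-ratios and 3 without mitochondrial and ribosomal protein genes or at pseudocount 5, and 1 gene was lower under TMM, median-of-ratios and 1.5-fold. The median of all genes there was 0.11 (TMM), 0.14 (median-of-ratios), 0.34 (without mitochondrial and ribosomal protein genes), 0.53 (pseudocount 5) and 0.50 (minimum 1 CPM), and 18.4% and 19.2% of genes were higher under TMM and median-of-ratios. The target median was 1.16 (no barcodes ending in N), 1.52 (cells weighted equally), 0.85 (TMM), 0.88 (median-of-ratios), 1.11 (without mitochondrial and ribosomal protein genes) and 1.20 (pseudocount 5). The S share was 17.5% in LNCaP–ENZ168, 40.02% in VCaP parental and 19.2% in VCaP–ENZ48 when thinned to 1000 UMIs, 7.11% in VCaP–ENZ48 at 4000 UMIs, and 9.75% in LNCaP–ENZ168 and 7.81% in VCaP–ENZ48 without thinning. Taking as G1 only the cells with 0 UMIs of the cycle lists left 1 cell in VCaP parental, 22 in VCaP–ENZ48 and 5 in LNCaP–ENZ168, and E2F3 then read 0.33 in the first comparison and 0.27 in the second, and TFDP1 -3.59 in the second. Depth limits E2F1, E2F2, E2F7 and E2F8, with 7 to 28 UMIs each in VCaP–ENZ48.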
